A study of Mus musculus with 37 samples.

Results

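Nnat, Ttc38, Gdf10 and Nckap1 are 4 of the 21975 genes measured in cortical astrocytes of injured and sham mice, taken from both hemispheres. They were chosen by a measured difference: between mice that developed post-traumatic epilepsy (PTE+) and injured mice that did not (PTE-), Nnat and Ttc38 were lower and Gdf10 and Nckap1 higher on both sides of the brain. That contrast is therefore given as a description, with no test. Tests were kept for what did not choose the genes: injured mice pooled against sham, the hemispheres of a mouse against each other, and the hemispheres of PTE- mice compared mouse by mouse.

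Nnat, neuronatin, encodes a small proteolipid of the endoplasmic reticulum membrane and is an imprinted gene, expressed from the paternal copy. Gdf10, also called BMP-3b, encodes a secreted ligand of the BMP and TGF-beta family, whose members bind paired serine/threonine kinase receptors that pass the signal to SMAD proteins. Nckap1 encodes a subunit of the WAVE complex, which the GTPase Rac switches on and which then starts branched actin filaments through the Arp2/3 complex. Ttc38 encodes a protein with tetratricopeptide repeats whose function is little known.

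The injured mice received a focal controlled cortical impact (CCI) on 1 side, the ipsilateral side, and the sham mice did not. By the study's methods, sham mice had a craniectomy and implanted EEG electrodes, as injured mice did, so their hemispheres are not those of an unoperated brain. All were wild type, labelled "WT CD31" (the study's methods name CD1 males, and no age is given), and cortex was taken at 4 months after surgery. Astrocytes were pulled from dissociated cortex with beads against the surface antigen ACSA-2, and each hemisphere of a mouse gave its own SMART-Seq library, with no pooling. The 37 libraries came from 20 mice: on the ipsilateral side 5 sham, 10 PTE- and 4 PTE+, and on the contralateral side 5 sham, 9 PTE- and 4 PTE+, with both hemispheres available for 17 mice.

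Values are TPM, a transcript level scaled for length and to the same total in every library, so the depth of each library is unknown and no counting error can be given. Summed over 12 astrocyte markers (Aldoc the most abundant, at a mean of 10085 TPM), the level ran from 15864.8 to 22845.8 TPM across libraries. Oligodendrocyte markers, the next most abundant list, summed to between 524.35 and 4480.64 TPM, neuronal markers to between 47.74 and 895.32 TPM, and microglial markers to between 120.31 and 756.81 TPM. Markers of the labelled cell type were thus present throughout, with lower levels of others. The ipsilateral PTE- library of mouse 9_14 had 10727 genes above 0 TPM, while the group's median was 16342. Mouse names carry the prefix 8 or 9, which the labels do not explain, so values within each prefix stand beside the pooled ones.

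Nnat was the most abundant of the 4, at a mean of 627 TPM over the 37 libraries, which ranked 196 among all genes. Nckap1 followed at 78.9 TPM, Gdf10 at 38.2 TPM and Ttc38 at 16.2 TPM, and all 4 were above 0 in every library and passed the filter on low values (a mean above 5 TPM in at least 1 group) in every comparison. The spread was widest for Nnat, whose highest library held 6.80 times the TPM of its lowest. For Gdf10 that ratio was 2.80.

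Nnat, the imprinted membrane protein gene, in the ipsilateral sham libraries read 442 TPM in mouse 8_15, 635 in 8_16, 598 in 9_9, 474 in 9_10 and 391 in 9_11, a mean of 508 ± 104 (SD, n = 5). The 10 ipsilateral PTE- libraries ran from 510 to 1368 TPM with a median of 778, a mean of 814 ± 268 (SD, n = 10). The ipsilateral PTE+ libraries read 586 TPM in mouse 8_10, 424 in 9_17, 607 in 9_18 and 562 in 9_19, a mean of 545 ± 82.4 (SD, n = 4). PTE- libraries were the high ones on this side: 8 of 10 exceeded every PTE+ library and 7 of 10 exceeded every sham library, led by mice 8_11 (1368 TPM) and 8_13 (1116 TPM), while PTE+ and sham overlapped. Such counts, here and for the genes below, use values of the contrast that chose the genes. They are given as a description, without the share over all genes, and nothing is read from them.

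On the contralateral side the sham libraries held 726 TPM of Nnat in mouse 8_15, 677 in 8_16, 494 in 9_9, 616 in 9_10 and 523 in 9_11, a mean of 607 ± 98.9 (SD, n = 5). Contralateral PTE- libraries ran from 378 to 930 TPM with a median of 667, a mean of 642 ± 184 (SD, n = 9). Contralateral PTE+ libraries read 455 TPM in mouse 8_10, 201 in 8_17, 463 in 9_17 and 420 in 9_18, a mean of 385 ± 124 (SD, n = 4). Here PTE+ was the low group, from 201 to 463 TPM, against 494 to 726 TPM in sham and 378 to 930 TPM in PTE-. Ordered by mean TPM within a side, the ipsilateral step from PTE- to PTE+, 269 TPM, was about the size of the larger SD, 268 TPM. The contralateral step from sham to PTE+, 222 TPM, exceeded the larger SD, 124 TPM. The other step on each side did not exceed it. The former step belongs to the contrast that chose the gene, and the latter ends at PTE+ values that the contrast used. Both are therefore given as a description, with no support drawn from them.

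Gdf10, the secreted ligand, read 38.5 TPM in ipsilateral sham mouse 8_15, 34.0 in 8_16, 30.8 in 9_9, 44.9 in 9_10 and 62.2 in 9_11, a mean of 42.1 ± 12.4 (SD, n = 5). Ipsilateral PTE- libraries ran from 26.3 to 40.2 TPM with a median of 37.4, a mean of 35.2 ± 4.99 (SD, n = 10). Ipsilateral PTE+ libraries read 39.1 TPM in mouse 8_10, 42.9 in 9_17, 39.8 in 9_18 and 60.1 in 9_19, a mean of 45.5 ± 9.87 (SD, n = 4). The PTE+ libraries were thus at the top of the PTE- range or above it, 2 of 4 exceeding every PTE- library, and all 4 lay within the sham range.

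Contralateral sham libraries held 47.2 TPM of Gdf10 in mouse 8_15, 36.2 in 8_16, 33.0 in 9_9, 46.4 in 9_10 and 45.3 in 9_11, a mean of 41.6 ± 6.51 (SD, n = 5). Contralateral PTE- libraries ran from 23.0 to 42.1 TPM with a median of 30.9, a mean of 31.5 ± 5.48 (SD, n = 9). Contralateral PTE+ libraries read 41.8 TPM in mouse 8_10, 64.5 in 8_17, 41.5 in 9_17 and 28.4 in 9_18, a mean of 44.1 ± 14.97 (SD, n = 4). Mouse 8_17 alone exceeded every PTE- library, and mouse 9_18 lay under the PTE- median. On both sides the PTE- mean was the lowest of the 3 groups and the sham mean lay closer to PTE+ than to PTE-. Of these steps only the contralateral one from sham to PTE-, 10.1 TPM, exceeded the larger SD. The contrast that chose the gene used the same PTE- values, so this step is given as a description, with no support drawn from it.

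Nckap1, the WAVE complex subunit, read 68.1 TPM in ipsilateral sham mouse 8_15, 46.9 in 8_16, 71.5 in 9_9, 74.4 in 9_10 and 124.4 in 9_11, a mean of 77.03 ± 28.6 (SD, n = 5). Ipsilateral PTE- libraries ran from 55.6 to 82.7 TPM with a median of 70.5, a mean of 71.1 ± 7.94 (SD, n = 10). Ipsilateral PTE+ libraries read 62.9 TPM in mouse 8_10, 115 in 9_17, 110 in 9_18 and 84.8 in 9_19, a mean of 93.2 ± 24.2 (SD, n = 4). The 3 PTE+ mice with prefix 9 exceeded every PTE- library, mouse 8_10 did not, and the sham libraries spanned the whole range of both.

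Contralateral sham libraries held 68.5 TPM of Nckap1 in mouse 8_15, 34.0 in 8_16, 111 in 9_9, 106 in 9_10 and 136 in 9_11, a mean of 91.1 ± 39.9 (SD, n = 5). Contralateral PTE- libraries ran from 42.2 to 88.4 TPM with a median of 71.3, a mean of 68.7 ± 15.2 (SD, n = 9). Contralateral PTE+ libraries read 73.7 TPM in mouse 8_10, 77.2 in 8_17, 127 in 9_17 and 98.5 in 9_18, a mean of 94.0 ± 24.3 (SD, n = 4). Of the 4 PTE+ libraries, 2 exceeded every PTE- library, and 3 of 5 sham libraries did too. The sham libraries split by prefix, the mice with prefix 8 at or below 68.5 TPM and those with prefix 9 at or above 106 TPM. No step between neighbouring group means within a side exceeded the larger SD.

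Ttc38, the tetratricopeptide gene, read 17.1 TPM in ipsilateral sham mouse 8_15, 14.96 in 8_16, 17.8 in 9_9, 18.9 in 9_10 and 19.8 in 9_11, a mean of 17.7 ± 1.85 (SD, n = 5). Ipsilateral PTE- libraries ran from 8.44 to 25.6 TPM with a median of 19.2, a mean of 18.3 ± 5.04 (SD, n = 10). Ipsilateral PTE+ libraries read 15.2 TPM in mouse 8_10, 7.27 in 9_17, 7.39 in 9_18 and 16.3 in 9_19, a mean of 11.6 ± 4.90 (SD, n = 4). Mice 9_17 and 9_18 lay below every other library on this side, and the other PTE+ mice lay within the PTE- range.

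Contralateral sham libraries held 19.4 TPM of Ttc38 in mouse 8_15, 14.96 in 8_16, 17.95 in 9_9, 18.5 in 9_10 and 14.8 in 9_11, a mean of 17.1 ± 2.11 (SD, n = 5). Contralateral PTE- libraries ran from 12.3 to 23.0 TPM with a median of 17.1, a mean of 17.03 ± 3.27 (SD, n = 9). Contralateral PTE+ libraries read 15.5 TPM in mouse 8_10, 13.9 in 8_17, 7.63 in 9_17 and 8.07 in 9_18, a mean of 11.3 ± 4.02 (SD, n = 4). The same mice, 9_17 and 9_18, were again below every other library. Within a side, the step down to PTE+ exceeded the larger SD. It was 6.14 against 4.90 TPM from sham ipsilaterally, and 5.75 against 4.02 TPM from PTE- contralaterally. The other step on each side did not exceed it. The contralateral step down to PTE+ belongs to the contrast that chose the gene, and the ipsilateral one ends at PTE+ values that the contrast used. Both are therefore given as a description, with no support drawn from them.

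**Figure D1:**
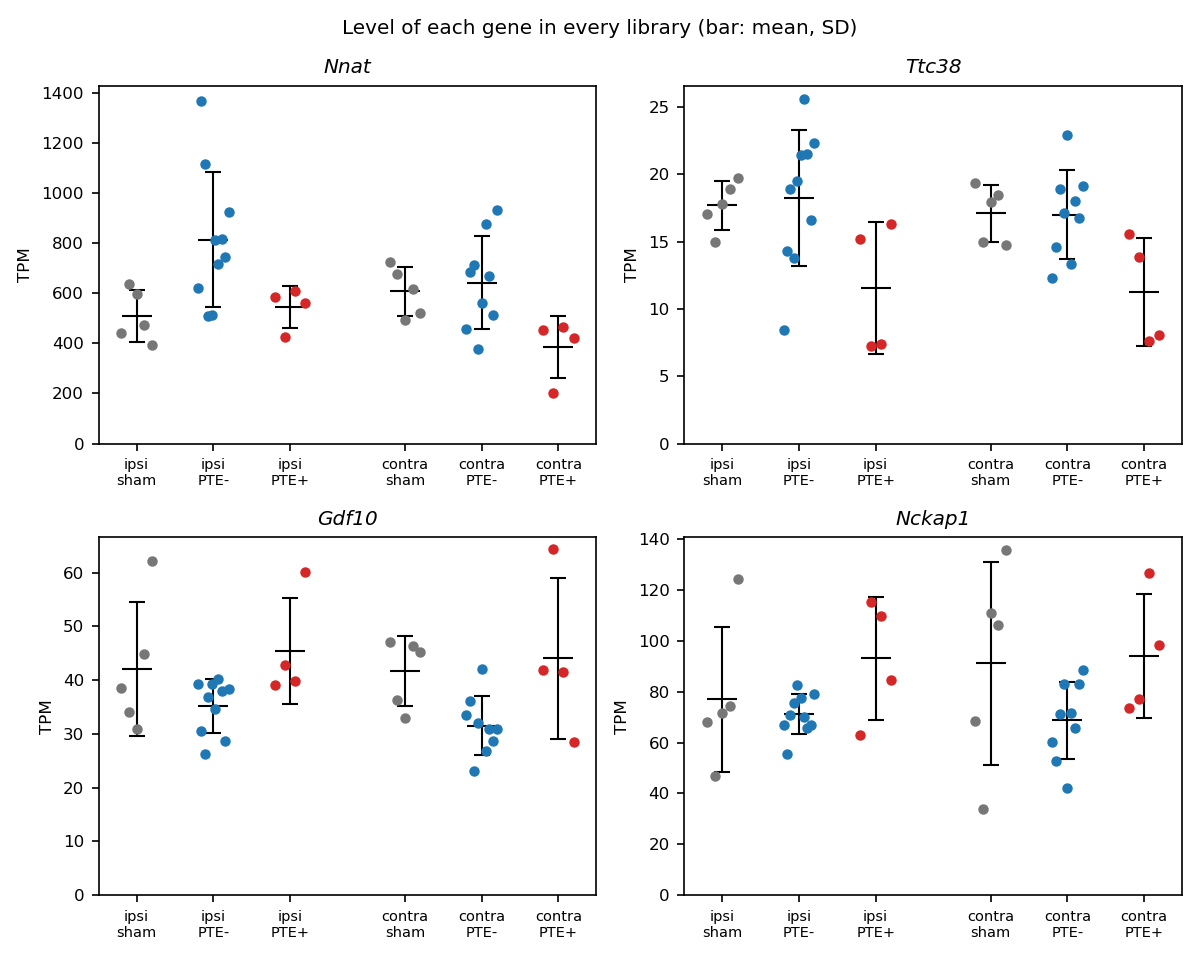
Level in TPM of Nnat, Ttc38, Gdf10 and Nckap1 in each of the 37 libraries, by hemisphere and group; points are libraries and bars the mean and SD. The contralateral PTE+ libraries of Nnat lie between 201 and 463 TPM, and the lowest Ttc38 libraries, at 7.27 and 7.63 TPM on their sides, are PTE+.

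As the contrast that chose the genes, PTE+ minus PTE- of the mean log2(TPM + 1) was -0.53 for Nnat on the ipsilateral and -0.76 on the contralateral side, folds of 0.694 and 0.592. Ttc38 differed by -0.65 and -0.59, folds of 0.637 and 0.663. Gdf10 differed by 0.35 and 0.43, folds of 1.28 and 1.35. Nckap1 differed by 0.35 and 0.45, folds of 1.28 and 1.36. The pooled SD of the libraries within the groups ran from 0.23 for ipsilateral Gdf10 to 0.48 for ipsilateral Ttc38.

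Among the 10215 genes above the filter on both sides, 5006 were higher and 1589 lower in PTE+ in both hemispheres, and the median gene stood at 0.12 on the ipsilateral and 0.05 on the contralateral side. A fold of at least 1.2 in both hemispheres was reached by 124 genes in the lower direction, which is 1.21% of those compared, and by 807 in the higher direction, 7.9%. Ranked by the smaller of the hemispheres' differences, Ttc38 was number 15 and Nnat number 25 of the genes lower in both. Nckap1 was number 432 and Gdf10 number 438 of the genes higher in both. Nothing is read from these counts, because the contrast selected the genes.

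Centring every library on its median brought Gdf10 to 0.27 ipsilaterally and 0.37 contralaterally, and Nckap1 to 0.28 and 0.39. It took Nnat to -0.60 and -0.82 and Ttc38 to -0.73 and -0.65. Single mice and the name prefix moved several of these differences, and leaving out a single mouse turned none of them. Within the mice with prefix 9, Ttc38 differed by -1.05 ipsilaterally and -1.09 contralaterally, Nnat by -0.50 and -0.64, and Nckap1 by 0.47 and 0.71. Gdf10 differed by 0.36 ipsilaterally and 0.12 contralaterally within prefix 9. Contralateral Gdf10 was 0.23 higher without mouse 8_17, against 0.43 with all mice. Contralateral Nnat without mouse 8_17 differed by -0.47, and ipsilateral Gdf10 without mouse 9_19 by 0.21. Without PTE+ mouse 9_17, Nckap1 differed by 0.29 on the contralateral side and by 0.24 on the ipsilateral side. Prefix 8 held 1 PTE+ library on the ipsilateral and 2 on the contralateral side, and its values were added after seeing the data. There Ttc38 differed by 0.17 ipsilaterally and -0.08 contralaterally and Nckap1 by -0.09 and 0.19, so the ipsilateral signs of both turned, while Nnat differed by -0.51 and -0.83 and Gdf10 by 0.25 and 0.74.

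**Figure D2:**
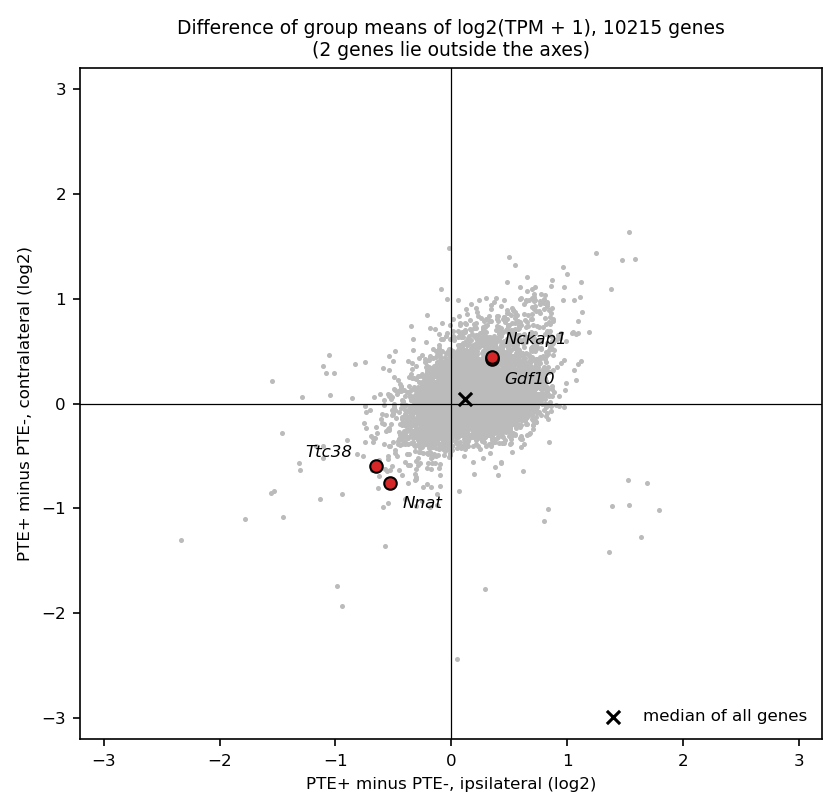
PTE+ minus PTE- of the mean log2(TPM + 1) for 10215 genes, ipsilateral on the horizontal and contralateral on the vertical axis, with the 4 chosen genes named and the median of all genes marked by a cross. Nnat and Ttc38 lie in the lower left and Gdf10 and Nckap1 in the upper right; 2 genes fall outside the axes, which end at 3.2.

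Markers of other cell types also differed between PTE+ and PTE- libraries, and their part in the 4 differences was not tested. Of 9 neuronal markers above the filter (Snap25 the most abundant, at a mean of 112 TPM), 9 were higher in PTE+ ipsilaterally, with a median difference of 0.59, and 8 contralaterally, with a median of 0.64. Summed neuronal markers in the ipsilateral PTE+ libraries were 446 TPM in mouse 8_10, 282 in 9_17, 300 in 9_18 and 355 in 9_19, within the PTE- range of 81.4 to 813 TPM. On the contralateral side the PTE+ sums were 359 TPM in mouse 8_10, 160 in 8_17, 381 in 9_17 and 734 in 9_18, within the PTE- range of 47.7 to 895 TPM. Endothelial markers (Cldn5 the most abundant, at a mean of 244 TPM) had a median difference of 0.24 ipsilaterally and 0.75 contralaterally over 6 genes, and their contralateral PTE+ sums ran from 277 to 944 TPM against 183 to 573 TPM in PTE-. Microglial markers were higher in PTE+ in 1 of 10 genes ipsilaterally and 5 of 10 contralaterally, and astrocyte markers in 10 of 12 and 2 of 12. Ependymal markers were lower in PTE+ in 6 of 6 genes ipsilaterally, with a median of -0.30, and in 5 of 6 contralaterally, with a median of -0.27. Their ipsilateral PTE+ sums were 618 TPM in mouse 8_10, 405 in 9_17, 551 in 9_18 and 604 in 9_19, within the PTE- range of 399 to 1205 TPM. The contralateral PTE+ sums were 397 TPM in mouse 8_10, 225 in 8_17, 1044 in 9_17 and 643 in 9_18, against 295 to 1368 TPM in PTE-. Oligodendrocyte markers were higher in PTE+ in 6 of 7 genes ipsilaterally, with a median of 0.66, and in 4 of 7 contralaterally, with a median of 0.07. Their PTE+ sums ran from 1192 to 2342 TPM ipsilaterally and from 1604 to 2626 TPM contralaterally, against 774 to 2275 and 844 to 3776 TPM in PTE-. The medians of the other lists, ipsilateral then contralateral, were 0.15 and -0.09 for astrocyte markers, -0.19 and 0.02 for microglia, 0.40 and 0.16 for oligodendrocyte precursors, 0.22 and 0.19 for mural cells, and 0.52 and -0.20 for fibroblasts and meninges, beside 0.12 and 0.05 for all genes. No neuronal or endothelial marker was at 0 in every library.

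Within a mouse, the hemispheres show how Nnat was distributed between the injured and the opposite side. In the sham mice the log2 difference, ipsilateral minus contralateral, was -0.71 in 8_15, -0.09 in 8_16, 0.28 in 9_9, -0.38 in 9_10 and -0.42 in 9_11, so Nnat was higher on the ipsilateral side in 1 of 5. In the 12 injured mice the difference ran from -0.13 to 0.999 with a median of 0.40, and the ipsilateral side was higher in 8 of 12. By outcome that was 6 of 9 PTE- mice and 2 of 3 PTE+ mice, mouse 8_10 at 0.37, 9_17 at -0.13 and 9_18 at 0.53. With prefix 8 the mean was 0.58 in injured and -0.40 in sham mice, and with prefix 9 it was 0.14 and -0.17. The 4 injured mice on the other side of 0 lay between -0.13 and -0.01, which the sham mice overlapped.

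In the injured mice Nnat rose on the ipsilateral over the contralateral side by a mean of 0.32 log2 (SE 0.09, n = 12, a fold of 1.25; two-sided exact sign-flip permutation p = 0.00928), and it was called, that is, it had an unadjusted p under 0.05 in the fit by limma across all genes and a fold of at least 1.2, the study's thresholds. Its p adjusted over all genes was 0.241. In this comparison 467 of 10350 genes were called, 4.51% of those tested, 249 higher (2.41%) and 218 lower (2.11%), and 22 had an adjusted p under 0.05. With the 4 genes read against that share, Nnat was called and Ttc38, Gdf10 and Nckap1 were not. Without pairing the hemispheres of a mouse, that is, with no replicate block, the difference of 0.32 was no longer called and 280 genes were. The call was also lost without PTE- mouse 8_11 (0.26, under the fold of 1.2), in leave-outs of PTE- mice that were chosen after seeing the data. In bulk libraries such as these, fewer cells of a type and less RNA per cell cannot be told apart.

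In the sham mice the mean Nnat difference was -0.26 (SE 0.13, n = 5) and it was not called. The exact sign-flip permutation p was 0.188 (n = 5), in a design whose smallest possible p is 0.0625. Leaving out sham mouse 9_9 brought it to -0.40, past the thresholds. Across genes, 732 of 10601 were called in sham mice, 6.91%, 691 of them lower on the ipsilateral side (6.52%) and 41 higher (0.387%), none at an adjusted p under 0.05 in limma against 762 at an unadjusted one. Centring every library on its median moved the median of all genes from -0.09 to 0.03 and the split to 315 higher and 212 lower, and relative to that shift Nnat stood at -0.15. The count was 470 without sham mouse 8_15, 339 without 9_10 and 126 with no replicate block.

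Whether the signed difference, ipsilateral minus contralateral, was shifted in injured against sham mice was tested directly. The test is not one of the size of the gap: the Nnat means, 0.32 in injured and -0.26 in sham mice, had opposite signs. For Nnat the ipsilateral minus contralateral difference was 0.59 log2 higher in injured than in sham mice (SE 0.18, 12 injured against 5 sham mice, a fold of 1.502; two-sided exact permutation p = 0.0097), with an adjusted p of 0.569 over all genes, a result that fails the correction. It was called in every alternative that was run, with values from 0.47 to 0.72. In mice with prefix 8 the difference was 0.98 (5 injured and 2 sham mice) and with prefix 9 it was 0.31 (7 injured and 3 sham mice). Of 10695 genes 695 were called, 6.5%, 631 higher (5.9%) and 64 lower (0.598%), none at an adjusted p under 0.05 in limma and 748 at an unadjusted one. Without sham mouse 9_10 the count was 403 and without 9_11 it was 1094. Centring moved the median of all genes from 0.08 to -0.04 and the split to 224 higher and 382 lower, and Nnat, at 0.47, was still among the genes called higher.

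**Figure D3:**
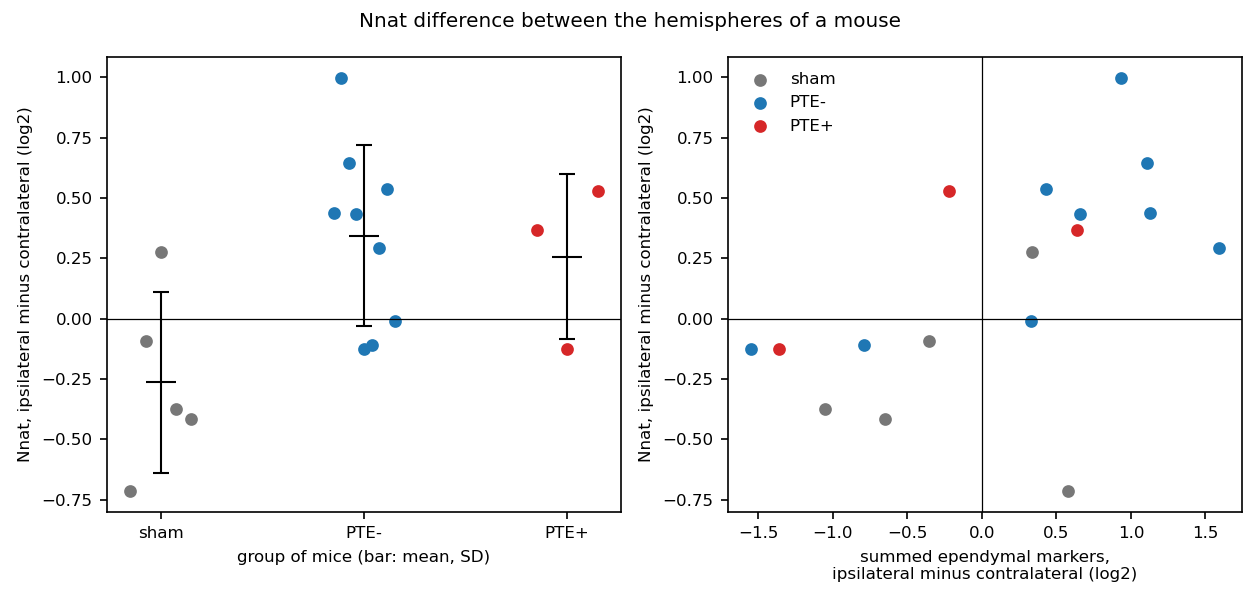
Left, the log2 difference of Nnat, ipsilateral minus contralateral, in each of 17 mice by group, with mean and SD; right, the same values against the difference in summed ependymal markers. Of 12 injured mice 8 lie above 0 and of 5 sham mice 1 does; in 10 of 12 injured and 4 of 5 sham mice the Nnat and ependymal differences have the same sign.

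Ependymal markers were set beside this Nnat difference, and their part in it was not tested. All 6 listed markers (Rarres2 the most abundant, at a mean of 285 TPM, none at 0 in every library) were above the filter, and 6 of 6 had a positive injured minus sham hemisphere difference, with a median of 0.97 and none called. Summed, they read 832 TPM ipsilaterally and 558 contralaterally in sham mouse 8_15, 584 and 746 in 8_16, 480 and 381 in 9_9, 424 and 881 in 9_10, and 274 and 430 in 9_11. In the injured libraries the sum ran from 399 to 1205 TPM with a median of 614 on the ipsilateral side, and from 225 to 1368 TPM with a median of 470 on the contralateral side. Within mice, the sign of the Nnat difference was that of the ependymal sum in 10 of 12 injured and 4 of 5 sham mice, the exceptions being sham mouse 8_15 and injured mice 9_18 and 9_20. This match was counted for no other marker list and not over all genes, so it is not shown to be particular to ependymal markers. Among astrocyte markers, the intermediate filament gene Gfap and the water channel gene Aqp4 were called higher in the same comparison, by 1.42 (SE 0.32) and 0.43 (SE 0.15), and with centring Aqp4 was no longer called.

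Between injured and sham mice on the ipsilateral side, Nnat was higher by 0.49 log2 (SE 0.21, 14 injured against 5 sham libraries, a fold of 1.40; two-sided exact permutation p = 0.0442, adjusted p 1.0) and was called. Of the 14 injured libraries 13 lay above the sham median and 7 above every sham library. The call was lost with median centring (0.46), with weights for each library (0.33), in a fit of both hemispheres with the mouse as replicate block (0.42), and without sham mouse 8_15 (0.44), 9_10 (0.47) or 9_11 (0.40). Within prefix 8 the difference was 0.55 and within prefix 9 it was 0.46. Here 169 of 10434 genes were called, 1.62%, 129 higher (1.24%) and 40 lower (0.383%), with none at an adjusted p under 0.05 in limma and 195 at an unadjusted one. The count was 399 without the library of mouse 9_14, 415 without sham mouse 9_11 and 843 with weights for each library, 664 higher and 179 lower. Without the library of mouse 9_14, 2 genes had an adjusted p under 0.05 in limma, and with the weights 1 did.

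On the contralateral side Nnat differed between injured and sham mice by -0.19 (SE 0.25, 13 against 5 libraries; exact permutation p = 0.496) and was not called. Within prefix 8 that difference was -0.66 and within prefix 9 it was 0.16. In this comparison 428 of 10556 genes were called, 4.05%, 57 higher (0.54%) and 371 lower (3.51%), none at an adjusted p under 0.05 in limma and 472 at an unadjusted one. Centring moved the median of all genes from -0.07 to 0.03 and the split to 255 higher and 155 lower. With the mouse as replicate block in 1 fit 161 genes were called, and without a single mouse between 231 (sham 9_11) and 883 (sham 9_9), with 728 without sham 8_16 and 667 without PTE+ 9_17. Both injured minus sham comparisons share mice, and the contralateral sham libraries also enter the hemisphere comparisons.

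Gdf10 was higher on the ipsilateral side in 9 of 12 injured mice, with differences from -0.24 to 0.47 and a median of 0.19, and in 1 of 5 sham mice, 9_11 at 0.45, the others between -0.29 and -0.05. The mean in injured mice was 0.14 (SE 0.07, n = 12, a fold of 1.10; exact sign-flip permutation p = 0.0493; adjusted p 0.559), and it was not called, with a fold under 1.2 and an unadjusted p of 0.0617 in limma. In sham mice the mean was -0.01 (SE 0.13; exact p = 0.938), which centring brought to 0.11, and the injured minus sham hemisphere difference was 0.15 (SE 0.13; exact permutation p = 0.236). Against sham, Gdf10 in injured mice differed by -0.12 (SE 0.16; exact permutation p = 0.465) on the ipsilateral side, a sign that turned without sham mouse 9_11 (0.03). On the contralateral side it differed by -0.26 (SE 0.17; exact permutation p = 0.167), with 12 of 13 injured libraries below the sham median, and without the PTE+ mouse 8_17 it was called at -0.34. By prefix (8, then 9) these differences from sham were -0.09 and -0.16 ipsilaterally, -0.17 and -0.34 contralaterally, and 0.24 and 0.09 for the hemisphere difference.

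Nckap1 was higher ipsilaterally in 6 of 12 injured mice, with differences from -0.31 to 0.96 and a median of -0.0043, and in 1 of 5 sham mice, 8_16 at 0.45. No test called it. The mean hemisphere difference was 0.04 (SE 0.09; exact sign-flip permutation p = 0.811) in injured and -0.16 (SE 0.15; exact p = 0.313) in sham mice, and it was 0.20 higher (SE 0.18; exact permutation p = 0.307) in injured than in sham mice. Without sham mouse 8_16 the sham value was -0.32 and was called, and without PTE- mouse 9_12 the injured value was -0.04. Injured minus sham was 0.05 (SE 0.18; exact permutation p = 0.798) ipsilaterally and -0.15 (SE 0.25; exact permutation p = 0.586) contralaterally. The contralateral difference had opposite signs by prefix, 0.50 within prefix 8 and -0.57 within prefix 9, and it was -0.46, and called, without sham mouse 8_16 but 0.03 without sham mouse 9_11. Ipsilaterally it was -0.11 without sham mouse 8_16, 0.22 within prefix 8 and -0.09 within prefix 9, and the hemisphere difference was -0.25 and 0.51 in the same order.

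Ttc38 had a mean difference near 0 between the hemispheres, over mice that went both ways, from 0.65 in PTE- mouse 9_13 to -0.50 in 8_9. In the PTE+ mice the difference was -0.03 in 8_10, -0.06 in 9_17 and -0.11 in 9_18, so the low level of mice 9_17 and 9_18 was seen on both sides of the brain. Over 12 injured mice it ran from -0.50 to 0.65, with a mean of -0.01 (SE 0.09; exact sign-flip permutation p = 0.879) that turned sign without PTE- mouse 8_9 (0.03), 8_14 (0.013) or 9_12 (0.0065), and over 5 sham mice from -0.17 to 0.40, with a mean of 0.05 (SE 0.14; exact p = 0.75). The injured minus sham hemisphere difference was -0.06 (SE 0.16; exact permutation p = 0.679). Injured minus sham was -0.19 (SE 0.25; exact permutation p = 0.471) ipsilaterally and -0.20 (SE 0.20; exact permutation p = 0.335) contralaterally, and none of the 5 tests called it. By prefix (8, then 9) the differences from sham were -0.21 and -0.20 ipsilaterally, -0.15 and -0.25 contralaterally, and -0.08 and -0.04 for the hemisphere difference.

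**Figure D4:**
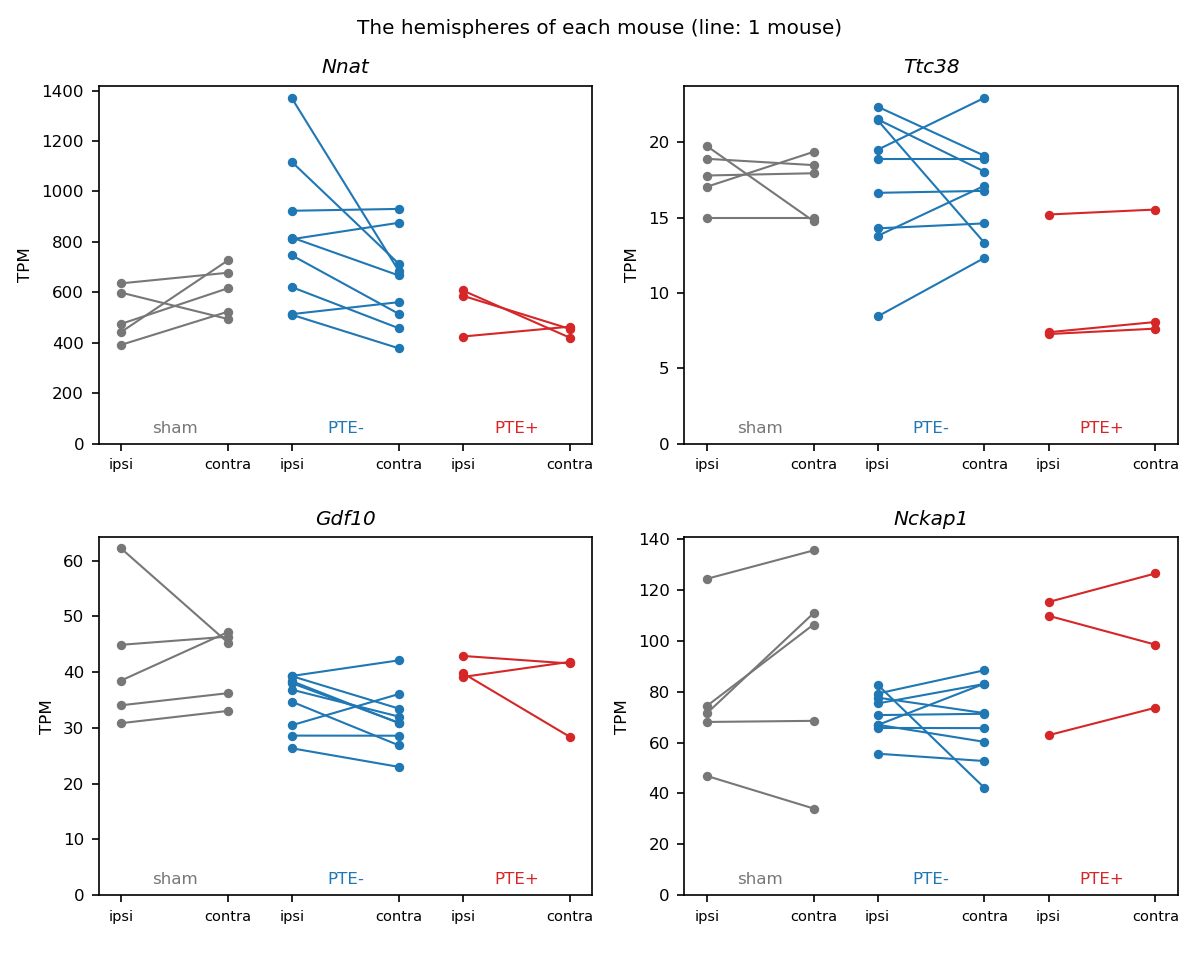
Level in TPM of each gene in the ipsilateral and contralateral library of 17 mice, a line joining the hemispheres of a mouse, by group. Nnat lines fall from the ipsilateral to the contralateral side in 8 of 12 injured mice and in 1 of 5 sham mice, and 2 PTE+ mice lie lowest for Ttc38 on both sides.

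Whether a mouse with a high level on one side also had a high level on the other was examined in the 9 PTE- mice with both hemispheres, the only group with enough mice, by correlation of log2(TPM + 1). For Nnat Pearson's r was 0.66 (exact permutation p = 0.053 over 362880 pairings, adjusted 0.224) and Spearman's rho 0.75 (exact p = 0.0255, adjusted 0.217), and r was 0.64 without the 2 mice farthest from the median, 8_11 and 8_14. Gdf10 had an r of 0.61 (exact p = 0.0834, adjusted 0.271) and a rho of 0.65 (exact p = 0.0666, adjusted 0.302), but r was 0.10 without mice 8_13 and 9_16. Those mice lie farthest from the median ipsilateral level, and leaving them out narrows its range, which can lower r by itself. With median centring the r of Gdf10 was 0.70 (exact permutation p = 0.0396). Ttc38 had an r of 0.60 (exact p = 0.0908, adjusted 0.282) and a rho of 0.57 (exact p = 0.121, adjusted 0.374), and r was 0.28 without mice 8_9 and 8_14. Nckap1 had an r of 0.14 (exact p = 0.72, adjusted 0.831) and a rho of 0.18 (exact p = 0.644, adjusted 0.793). Without mice 8_11 and 9_12 its r was 0.58, and with centring it was -0.21. The median r over 9946 genes was 0.45, and 2242 genes, 22.5%, had a positive r with an unadjusted exact p under 0.05, and 0 of the 4 genes were among them. Each prefix held fewer than 6 of these mice, too few for a correlation of its own.

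The other imprinted genes show what surrounds Nnat in its class. Of 18 paternally expressed genes listed, 12 were tested ipsilaterally and Nnat was the only 1 called, where 1.24% of all genes were called higher, the list's median injured minus sham difference being -0.04 against -0.01 for all genes, and with centring Nnat was not called. In the injured hemispheres 3 of 12 were called higher on the ipsilateral side, against 2.41% of all genes. These were Nnat itself, the growth regulator Dlk1 (0.49, SE 0.18) and Mest (0.88, SE 0.28), and the same 3 genes were called with centring. Dlk1 was not among the 11 genes of the list above the filter on both sides in PTE+ minus PTE-. A gene that passes the filter through the ipsilateral side, where it is high, is favoured for such a call. Nothing is therefore read from the Dlk1 call. Contralaterally 2 of 11 were called lower against sham, beside 3.51% of all genes, Inpp5f by 0.39 and Nap1l5 by 0.44, of which Nap1l5 was not called with centring. In sham mice Inpp5f was called lower ipsilaterally (-0.35, SE 0.15), 1 of 12 beside 6.52% of all genes, a call that centring removed. In the hemisphere difference between injured and sham mice Nnat was the only 1 of 12 called, with and without centring, beside 5.9% of all genes called higher. Of 4 maternally expressed genes tested, Cdkn1c, an inhibitor of cyclin-dependent kinases, was called lower ipsilaterally in sham mice (-0.56, SE 0.15), beside 6.52% of all genes, and 0 of 4 were called in the other comparisons.

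Nnat has been likened to phospholamban, a small membrane regulator of the endoplasmic reticulum calcium pump. Of the pump genes and such regulators 3 were tested against sham. Pln, phospholamban itself, was called lower on the contralateral side (-0.60, SE 0.25), where 3.51% of all genes were. None was called ipsilaterally or between hemispheres. Where sham was left out 2 of the list passed the filter, and in PTE+ minus PTE- Pln was not among them. A gene that passes the filter through sham, where it is high, is favoured for a call lower in injured mice. Nothing is therefore read from the Pln call. The pump gene Atp2a2 was the most abundant at a mean of 112 TPM.

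Around Gdf10, the ligands, receptors, SMADs and antagonists of its family had 1 gene called against sham ipsilaterally and 0 contralaterally, where 1.62% and 4.05% of all genes were. Of 9 ligands tested ipsilaterally and 8 contralaterally, 0 were called, though with centring Bmp6 was called higher ipsilaterally. Bmp6 was also called higher on the ipsilateral than the contralateral side of injured mice (0.31, SE 0.13), 1 of 8 ligands beside 2.41% of all genes. Bmp7, the most abundant ligand, was called lower ipsilaterally in sham mice (-0.27, SE 0.12), 1 of 8 beside 6.52% of all genes, and Inhba was called higher in the injured minus sham hemisphere difference (0.80, SE 0.35), 1 of 8 beside 5.9%, and neither was called with centring. All 8 ligands tested had a positive value in that last comparison, with a median of 0.31 against 0.08 for all genes, and of 0.19 with centring.

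Of 8 receptors tested against sham 0 were called in either hemisphere. Eng, a co-receptor abundant in blood vessel cells, was called lower ipsilaterally in sham mice (-0.35, SE 0.15), a call that centring removed, and in injured mice (-0.42, SE 0.14), alongside 3 of 7 endothelial markers in each, beside 6.52% and 2.11% of all genes, among them Flt1 (-0.50, SE 0.15 in sham and -0.50, SE 0.21 in injured mice). The type I receptor Bmpr1a was called higher in the hemisphere difference between injured and sham mice (0.50, SE 0.23), 1 of 8 receptors beside 5.9% of all genes, but not with centring, which instead called Acvr2b higher ipsilaterally in sham mice and lower in that difference. Of 11 SMADs and target genes 0 were called against sham. Smad6 was called lower ipsilaterally in sham mice (-0.44, SE 0.20) and Id3, a BMP target, higher in the hemisphere difference (0.28, SE 0.12), each 1 of 11 beside 6.52% and 5.9% of all genes, both lost with centring.

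Noggin, the secreted BMP antagonist encoded by Nog, was the only gene of these 4 lists called against sham as deposited, 0.87 higher ipsilaterally (SE 0.34, adjusted p 1.0), 1 of 6 antagonists tested, where 1.24% of all genes were called higher. In sham mice it was lower on the ipsilateral side (-0.47, SE 0.19) and the hemisphere difference between injured and sham mice was 0.51 higher (SE 0.17). Fstl1 was called with it in the last of these (0.37, SE 0.16) and in sham mice (-0.35, SE 0.14), so 2 of 6 antagonists were called in each, beside 5.9% of all genes higher in the former and 6.52% lower in the latter. With centring Nog stayed called against sham and in the hemisphere difference, and the other calls of both genes were lost. As a description with no test, PTE+ minus PTE- had a median of 0.42 ipsilaterally and 0.29 contralaterally over 7 receptors, and of 0.39 and 0.19 over 11 SMADs and targets, against 0.12 and 0.05 for all genes. Over 9 ligands, Gdf10 included, it was 0.09 and 0.08, and over 6 antagonists 0.13 and -0.05. Among the receptors Eng (0.63 and 0.86) and Acvrl1 (0.62 and 0.67) stood beside endothelial markers at 0.24 and 0.75, whose part was not tested.

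Around Nckap1, 9 of 11 WAVE complex genes and 12 of 13 genes of the Arp2/3 complex and Rac were tested, and 0 were called against sham on either side, beside 1.62% of all genes ipsilaterally and 4.05% contralaterally. In sham mice, where 6.52% of all genes were called lower ipsilaterally, Abi1 (-0.32, SE 0.12) and Arpc1b (-0.31, SE 0.13) were too, calls that centring removed, while with centring Arpc3 was called higher there and lower in the hemisphere difference between injured and sham mice. In the injured mice 0 of these genes were called between hemispheres. As a description, 9 of 9 WAVE genes were higher in PTE+ than in PTE- ipsilaterally, with a median of 0.19, and 6 of 9 contralaterally, with a median of 0.08, beside 0.12 and 0.05 for all genes. These 9 include Nckap1 itself, which that contrast chose. Of the Arp2/3 and Rac genes 8 of 12 were higher ipsilaterally, with a median of 0.05, and 9 of 12 contralaterally, with a median of 0.11. Of the WAVE genes Cyfip2, a Rac-binding subunit, differed most, by 0.91 and 0.62.

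Among 25 genes named for tetratricopeptide repeats, 18 were tested against sham. Ttc30b was called higher ipsilaterally (0.55, SE 0.16), 1 of 18 where 1.24% of all genes were, and Ttc14 (-0.52, SE 0.20) and Ttc19 (-0.42, SE 0.14) lower contralaterally, 2 of 18 where 3.51% were. In sham mice Ttc13, Ttc14 and Ttc19 were called lower ipsilaterally, 3 of 18 beside 6.52% of all genes, and in the hemisphere difference between injured and sham mice Ttc30b was called higher (0.53, SE 0.22), 1 of 19 beside 5.9%. These 4 calls were lost with centring, which also added Ttc3 higher contralaterally. In PTE+ minus PTE-, the contrast that chose Ttc38, the medians of the 18 were 0.01 ipsilaterally and 0.04 contralaterally.

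**Figure D5:**
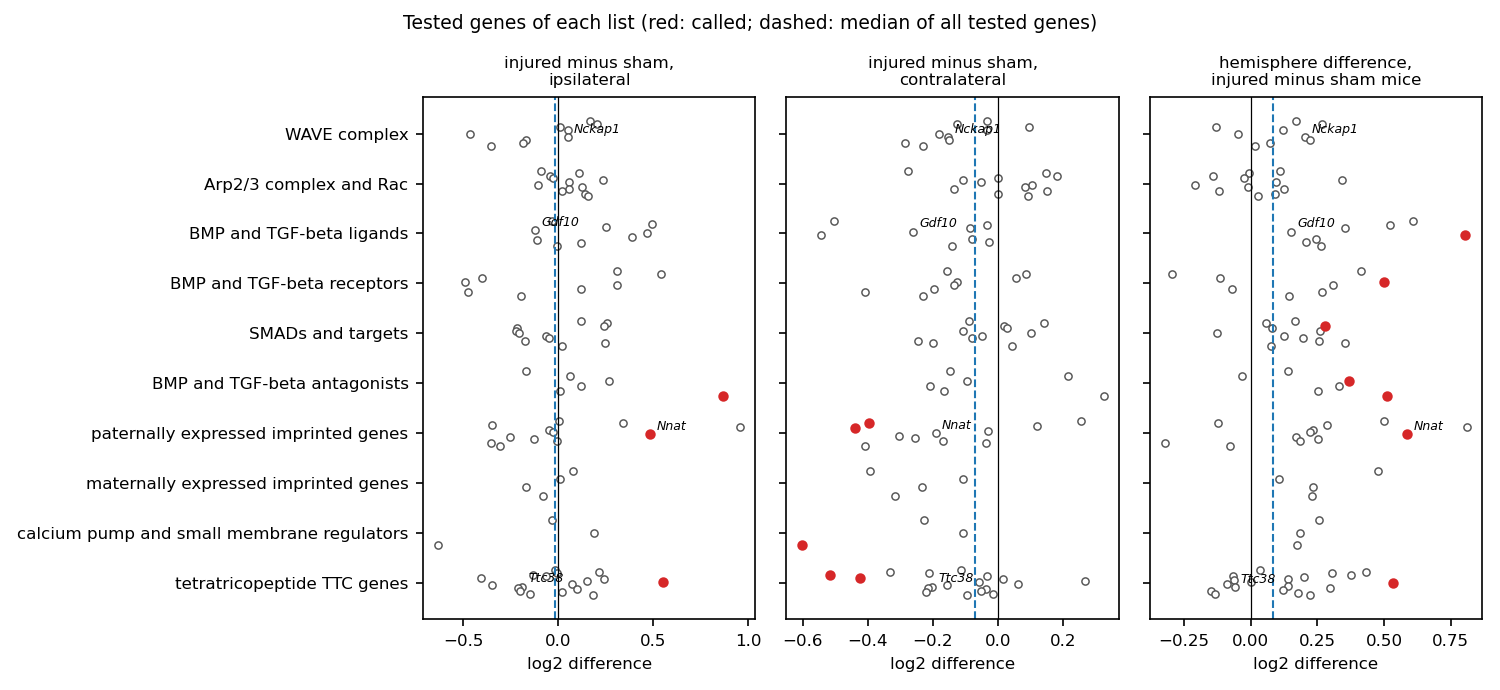
Log2 difference of each tested gene of 10 lists around the 4 genes, injured minus sham on either side and the hemisphere difference between injured and sham mice; red points were called, the dashed line is the median of all tested genes, and the 4 genes are named. Nnat is called in the left and right panels, at 0.49 and 0.59, and not in the middle one, at -0.19.

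Other marker lists moved in the comparisons that called Nnat, and their part was not tested. Of 9 oligodendrocyte markers 4 were called lower against sham ipsilaterally (3 with centring), where 0.383% of all genes were, among them Mog (-1.75, SE 0.65) and Mag (-1.53, SE 0.62), and 4 of 8 were called lower on the ipsilateral side of injured mice, where 2.11% of all genes were, among them Mobp (-0.92, SE 0.21) and Mbp (-0.72, SE 0.23). Their sum ran from 524 to 4481 TPM in ipsilateral sham and from 774 to 2342 TPM in ipsilateral injured libraries, with Mbp the most abundant and none at 0 in every library. Where sham was left out, 8 of these markers passed the filter between injured hemispheres and 7 in PTE+ minus PTE-. A gene that passes the filter through sham, where it is high, is favoured for a call lower in injured mice. Nothing is therefore read from the count of 4 lower calls against sham. The ependymal genes Foxj1 (0.98, SE 0.31) and Tmem212 (1.08, SE 0.49) were called higher against sham ipsilaterally, 2 of 6 beside 1.24% of all genes, with 6 of 6 markers positive, and Tmem212 was not called with centring. In injured mice 2 of 3 oligodendrocyte precursor markers, Matn4 (1.14, SE 0.21) and C1ql1 (0.52, SE 0.16), were called higher on the ipsilateral side, beside 2.41% of all genes, with 3 of 3 positive. There 1 of 6 fibroblast and meningeal markers, Slc47a1 (1.14, SE 0.34), was called higher, beside the same 2.41%, with 3 of 6 positive and a list median of 0.06. Of 5 mural markers Rgs5 (-0.41, SE 0.10) and Acta2 (-0.66, SE 0.25) were called lower there, beside 2.11% of all genes, with 3 of 5 positive and a list median of 0.04. Both were also called lower in sham mice (-0.47, SE 0.18, and -0.49, SE 0.15), beside 6.52% of all genes, Rgs5 not with centring. Of the astrocyte markers, Gfap and Aqp4 were called higher against sham ipsilaterally, by 1.18 (SE 0.29) and 0.39 (SE 0.17), 2 of 12 where 1.24% of all genes were, and on the ipsilateral side of injured mice, by 1.21 (SE 0.16, adjusted p 0.00219) and 0.29 (SE 0.07).

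In the hemisphere difference between injured and sham mice, where 5.9% of all genes were called higher, 1 of 5 oligodendrocyte precursor markers, Matn4 (1.04, SE 0.44), 1 of 6 fibroblast and meningeal markers, Slc47a1 (2.70, SE 0.80), and 1 of 9 neuronal markers, Gad1 (0.54, SE 0.21), were called higher, Gad1 not with centring. Oligodendrocyte markers there had a median of -0.59 with 1 of 9 positive, and 0 were called as deposited and 2 lower with centring. Fibroblast and meningeal markers had a median of 0.56 with 5 of 6 positive, microglial markers 0.22 with 10 of 10, and neuronal markers -0.21 with 1 of 9, beside 0.08 for all genes. Against sham ipsilaterally 0 of 9 neuronal markers were positive, with a median of -0.44, and 6 of 6 fibroblast and meningeal markers, with a median of 0.24, and neither list had a call. Between the hemispheres of injured mice microglial markers were positive in 10 of 10, with a median of 0.14, and ependymal markers in 6 of 6, with a median of 0.39, and neither list had a call.

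Genes whose pattern was most like each of the 4 were sought among 10412 by Pearson's r of log2(TPM + 1) over the 19 ipsilateral and over the 18 contralateral libraries, taking the smaller r, as a description with no p. The levels were not centred, and the libraries include PTE+ and PTE-, whose contrast chose the genes. Such an r can therefore hold a shift of whole libraries or that contrast, and neither part was tested. By this r Nckap1 had the closest partners: Uso1, a vesicle tethering factor (0.87 and 0.86), Cltc, the clathrin heavy chain (0.83 and 0.85), and Ak4, a mitochondrial adenylate kinase (0.82 and 0.83). Nnat was most like Snrpf, a spliceosome core protein gene (0.66 and 0.66), Acp1, a low molecular weight phosphatase (0.68 and 0.63), and Cetn4, a centrin (0.64 and 0.63). Gdf10 was most like Ubr2, a ubiquitin ligase (0.79 and 0.65), Fjx1 (0.63 and 0.62) and Por, the electron donor of cytochrome P450 enzymes (0.61 and 0.64). The study lists Ubr2, like Gdf10, as higher in PTE+ in both hemispheres. Ttc38 was most like Cyp2d22 (0.64 and 0.61), the folate transporter gene Slc46a1 (0.71 and 0.58) and the lysosomal protease gene Ctsa (0.56 and 0.60). Of these 12, Uso1 was called in 1 comparison, the hemisphere difference between injured and sham mice (0.38, SE 0.15), in which 5.9% of all genes were called higher.

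On GRCm38, Nnat (ENSMUSG00000067786) lies at chr2:157560078-157562522 on the plus strand and Nckap1 (ENSMUSG00000027002) at chr2:80500512-80581380 on the minus strand. Gdf10 (ENSMUSG00000021943) lies at chr14:33923587-33937983 and Ttc38 (ENSMUSG00000035944) at chr15:85832306-85858822, both on the plus strand. Nnat sits within Blcap, a gene on the opposite strand, and 0 of 11 annotated Blcap exons overlap an exon of Nnat. Blcap read between 91.9 and 105 TPM in the 6 group means and was not called in any test, and its PTE+ minus PTE- difference was 0.00 ipsilaterally and -0.19 contralaterally. The 13 neighbours tested were 5 of Nnat, 4 of Ttc38 and 4 of Nckap1, while the 4 listed for Gdf10 were below the filter. In each of 4 comparisons 1 of the 13 was called. Dnajc10 was lower contralaterally against sham (-0.33, SE 0.14), lower ipsilaterally in sham mice (-0.36, SE 0.13) and higher in the hemisphere difference (0.56, SE 0.16), beside 3.51%, 6.52% and 5.9% of all genes called in those directions. Frzb, a secreted Wnt antagonist, was higher on the ipsilateral side of injured mice (1.55, SE 0.54), beside 2.41% of all genes. Both lie near Nckap1.

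The table of RefSeq promoter sequences used here (GRCm38.p6) held 3 of the 4 genes, Nnat, Gdf10 and Ttc38, and not Nckap1. Sequence is printed to show how the genes chosen together differ upstream of their starts. Each sequence is the 250 bases before the start annotated with these promoters, 5′ to 3′, at chr2:157559828-157560077 for Nnat, chr14:33923337-33923586 for Gdf10 and chr15:85832054-85832303 for Ttc38, all on the plus strand. The Ttc38 window does not end directly before the gene start given above, 85832306, so the annotated starts differ for that gene. Capitals mark matches, on either strand, to the GC box GGGCGG, the CAAT box motif CCAAT, the TATA box motif TATAAA, the AP-1 motif TGANTCA and the cyclic AMP response motif TGACGTCA.

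Nnat: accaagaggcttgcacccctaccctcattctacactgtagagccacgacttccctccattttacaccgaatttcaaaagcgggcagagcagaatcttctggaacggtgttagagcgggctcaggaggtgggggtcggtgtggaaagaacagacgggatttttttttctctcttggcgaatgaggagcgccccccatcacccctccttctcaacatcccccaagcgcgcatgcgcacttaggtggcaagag
Gdf10: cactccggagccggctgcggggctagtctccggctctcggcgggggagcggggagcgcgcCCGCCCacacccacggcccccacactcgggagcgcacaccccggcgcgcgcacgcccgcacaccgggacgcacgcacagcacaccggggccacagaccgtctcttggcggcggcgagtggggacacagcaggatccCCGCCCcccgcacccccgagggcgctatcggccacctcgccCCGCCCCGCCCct
Ttc38: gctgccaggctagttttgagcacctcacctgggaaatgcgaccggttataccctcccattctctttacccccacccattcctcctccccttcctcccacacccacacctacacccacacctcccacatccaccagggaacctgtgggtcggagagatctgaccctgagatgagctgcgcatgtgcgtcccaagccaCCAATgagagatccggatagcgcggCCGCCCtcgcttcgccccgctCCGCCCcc

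Gdf10 held 4 GGGCGG matches, of which the last 2 overlap by 1 base, and 35 CpG pairs at 78.8% G and C, a CpG number reached by 2.97% of 32851 promoter windows of the same length, whose median was 6. Ttc38 held 2 GGGCGG matches, 1 CCAAT and 13 CpG pairs, and Nnat held 12 CpG pairs and 0 matches, which says only that these letters are not in this window. Of all windows 32.7% held GGGCGG, 33.8% CCAAT, 12.4% TATAAA, 6.75% TGANTCA and 1.55% TGACGTCA.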

How the data were processed

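Values are the TPM that the authors deposited, 1 column per library and 1 table per hemisphere, made by trimming with Trim Galore 0.6.4 and estimating levels with RSEM 1.2.28 over Bowtie2 2.4.1 on mm10. The columns sum to the same total, read counts are not given, and depth per library is unknown. Symbols came from GENCODE on GRCm38 for 21856 of 21975 genes, with 119 left unnamed. Groups follow the labels, and mice are matched across hemispheres by the names in the labels; the deviations of a mouse's libraries from their group means correlated across 10235 genes with a median of 0.412, above 0.1 in 16 of 17 mice.

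Genes whose mean TPM exceeded 5 in any group compared were fitted as log2(TPM + 1) with limma 3.58.1 in R 4.3.3, with a variance trend. Hemisphere comparisons used differences within mice. A gene that passed this filter only through the group where it was high is favoured for a call in that direction. A gene was called at an unadjusted p under 0.05 and a fold of at least 1.2, and p-values were adjusted by Benjamini-Hochberg over all tested genes. Exact permutation tests, all two-sided, enumerated 11628, 8568, 32, 4096 and 6188 arrangements, in the order ipsilateral, contralateral, sham hemispheres, injured hemispheres and their difference. The fits were tested on simulated data, and no result given here rests on that. Scripted steps used Python 3.11.15, numpy 2.4.6, pandas 2.3.3, scipy 1.17.1, numba 0.67.0 and matplotlib 3.10.9.

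The genes and the gene lists were chosen with earlier results of these data known. Named were the 4 genes, the 3 most similar genes to each, the 2 nearest neighbours on each side above a mean of 1 TPM, called list members, and a few abundant ones. Alternatives were a pseudocount of 0.1, no filter, median centring, weights for each library, the name prefix as a covariate, the mouse as replicate block or none, and leaving out single libraries or mice; leaving out each PTE- mouse and PTE+ minus PTE- within prefix 8 were added after seeing the data.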

Additional observations from a re-analysis of the deposited data

Results flagged for a closer look

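Nnat had 1 library far below the others of its group: the contralateral PTE+ library of mouse 8_17, at 201.29 TPM where the other 3 lay between 419.95 and 463.4 TPM. The same mouse had the highest contralateral Gdf10 level of all, 64.45 TPM, and no ipsilateral library. Nckap1 had a hemisphere difference of 0.96 log2 in PTE- mouse 9_12, far above the other PTE- mice, from 82.72 TPM on the ipsilateral and 42.16 TPM on the contralateral side. The ipsilateral PTE- library of mouse 9_14 had 10727 genes above 0 TPM, far fewer than the others of its group. Among 38 groups looked at, 3 single libraries or mice stood apart in this way, and chance alone marks about 1 in 20 groups.

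Nnat also differed between injured and sham mice in its hemisphere difference, by 0.59 log2 in a direct test, with an exact permutation p of 0.0097 and an adjusted p of 0.569. Its mean was 0.32 in 12 injured and -0.26 in 5 sham mice.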

How the results depend on the processing

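Of 400 values of the 20 tests of the 4 genes under the alternatives, 372 kept their direction and their side of the thresholds, 8 lost a call, 4 gained one and 16 turned sign, none of the 16 a called result; leaving out PTE- mice, apart from the ipsilateral library of 9_14, and PTE+ minus PTE- within prefix 8 were chosen after seeing the data; the causes were not tested. Nnat in injured against sham mice ipsilaterally lost its call with median centring (0.46), library weights (0.33), the replicate block (0.42) and without 3 of the sham mice in turn, with a range of 0.40 to 0.57 over left-out libraries; between the hemispheres of injured mice it lost it with no replicate block (0.32) and without PTE- mouse 8_11 (range 0.26 to 0.36). Calls were gained by leaving out single mice: Nnat in sham hemispheres (range -0.40 to -0.15), Gdf10 contralaterally (-0.34 to -0.21), and Nckap1 contralaterally (-0.46 to 0.026, turning sign without sham 9_11) and in sham hemispheres (-0.32 to -0.048). Signs turned for Gdf10 ipsilaterally with library weights (0.063) and over left-out libraries (-0.22 to 0.028), for Gdf10 in sham hemispheres with centring (0.11) and without 3 of the mice in turn (-0.13 to 0.055), for Nckap1 ipsilaterally (-0.11 to 0.24, without sham 8_16), for Ttc38 in sham hemispheres (-0.039 to 0.104) and in the hemisphere difference (-0.12 to 0.026), both without sham 9_11, and between injured hemispheres with library weights for Ttc38 (0.0098) and Nckap1 (-0.0060) and over left-out mice for both (-0.073 to 0.031 and -0.043 to 0.072). Of 156 values of PTE+ minus PTE-, 152 moved by less than the SD within groups, contralateral Ttc38 moved further within prefix 9 (-1.09) and prefix 8 (-0.079), and ipsilateral Ttc38 (0.17) and Nckap1 (-0.085) turned sign within prefix 8, which held 1 PTE+ library there. Of 8 values of agreement, Nckap1 turned with centring (-0.21) and Gdf10 passed p under 0.05 with it (0.70). Of 100 counts of called genes 82 stayed within 1.5 times: with no filter, which tests more genes, the counts were 379 ipsilaterally, 682 contralaterally, 718 between injured hemispheres and 1143 for the hemisphere difference; with library weights 843 ipsilaterally; with the replicate block 161 contralaterally; without it 126 between sham and 280 between injured hemispheres. Over left-out libraries they ran from 138 to 415 ipsilaterally, 231 to 883 contralaterally, 339 to 923 between sham hemispheres, 414 to 575 between injured hemispheres and 403 to 1094 for the hemisphere difference. The depth of each library is unknown, so what it limits could not be stated.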
